A study of Mus musculus with 47 samples.

Results

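Chemokines are small secreted proteins that steer migrating cells, and chemokine receptors are the G protein-coupled receptors that bind them. The family was followed here in mouse olfactory epithelium, the nasal lining in which odorant-detecting neurons sit. Members were taken by symbol: every gene named Ccl, Cxcl, Ccr or Cxcr followed by a number, with or without a letter, plus Cx3cl1, Xcl1 and Xcr1. Chemokines and receptors under other names, such as Pf4, Ppbp and Cx3cr1, were not members and are counted outside the family below. This gave 62 gene entries under 56 symbols, of 54532 genes in the deposited tables. There were 45 ligand entries and 17 receptor entries. Ccl19, Ccl21a, Ccl21b, Ccl21c and Ccl27a each had more than 1 entry, and 7 entries lay on unplaced scaffolds of the assembly.

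Polyadenylated RNA was sequenced in 23 libraries from mice of the strain label C57BL/6J (WT) and 24 from mice labelled OIVT;Kir2.1 (Kir). The 7 ages ran from P0, the day of birth, through P3, P5, P7, P10 and P14 to P21. Each genotype had 3 libraries per age, except that P0 and P7 had 4 in both and P10 had 4 in Kir. Kcnj2 encodes Kir2.1, a potassium channel of the inward-rectifier class. The labels give the second strain by that name alone, so neither the promoter that drives the channel nor the cells that make it are stated, and no other treatment is given. Whether a library stands for 1 animal is not stated either, and p-values then measure only the spread between these libraries, some of which may be technical.

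Counts over genes ran from 8107547 to 30385151 per library. Library titles carry a prefix (cry3, cry4 or cry6) of unstated meaning, treated as a possible batch. All P0, P3, P14 and P21 libraries were cry4, all P5 and P10 libraries cry6 and P7 was mixed alike in both genotypes, so comparisons of genotypes within an age, and of P21 with P0, do not rest on the prefix. Kcnj2 was higher in Kir by 3.63 ± 0.21 on the log2 scale averaged over ages (edgeR adjusted p = 7.59e-14), but 5 Kir libraries had low values, 132, 146, 173, 209 and 238 CPM (counts scaled to library size) against 439 CPM or more in the other Kir libraries. They were replicate 3 at P3, replicates 1 and 4 at P7 and replicates 1 and 2 at P21. WT libraries held 36.8 to 104 CPM of Kcnj2, below every Kir library. In the 2 Kir P10 libraries numbered 1 and 2, 17.73% and 33.49% of reads were unmapped. The 6 markers of mature sensory neurons were present, at a summed 1110 to 7170 CPM in WT and 632 to 5860 CPM in Kir. Markers of brain neurons summed to 603 CPM in WT P0 replicate 1 and to 85.6 to 265 CPM in the other libraries, and markers of ensheathing glia to 805 CPM in that library against 118, 145 and 295 CPM in the other WT P0 libraries. That library belongs to the baseline of the WT age comparison, which is also given without it.

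As background, inflammatory chemokines are switched on by interferon and NF-kappaB signalling and draw leukocytes into tissue, while homeostatic ones are made steadily by epithelium, stroma or lymphoid tissue. Cxcl10 is the classic interferon-induced chemokine; together with Cxcl9 and Cxcl11 it binds Cxcr3 on activated T cells and natural killer cells. Cxcr4 is the receptor of Cxcl12, a pair known for guiding progenitor cells and neurons during development as well as leukocytes.

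The Cxcl10 promoter is shown because Cxcl10 had the largest genotype difference of the family. It was read from the RefSeq promoter table (GRCm38.p6, minus strand) and covers the 250 bases before the start site, chr5:92348890-92349139, with 2 searched motifs in capitals. The first is the core of the interferon-stimulated response element (GAAA, any 2 bases and GAAA again), which starts 213 bases before the start site, and the second a kappaB-like core (GGGANTTCC), which starts 103 bases before it. Only these patterns were searched, so similar stretches of another length, such as gggaaattcc in this sequence, were not matched.

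Cxcl10 upstream: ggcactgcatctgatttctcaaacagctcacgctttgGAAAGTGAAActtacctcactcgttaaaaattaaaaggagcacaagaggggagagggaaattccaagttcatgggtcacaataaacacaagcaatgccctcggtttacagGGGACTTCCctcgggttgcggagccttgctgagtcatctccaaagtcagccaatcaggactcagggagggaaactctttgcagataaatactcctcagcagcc

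The promoter table held 47 promoters of 40 of the 56 symbols, each from 250 bases before to 50 after the start. Both motifs were searched on both strands. The interferon element core was found for 3 members, Ccl19, Cxcl10 and Cxcl14, and in 3.44% of all 32851 promoters in the table. The kappaB-like core was found for 4 members, Cxcl9, Cxcl10, Ccl25 and Ccr6, and in 1.68% of all promoters. Cxcl10 alone among the members with a promoter entry held both. No 2 different motifs overlapped; in Ccr6 the kappaB-like letters were read on both strands of 1 site. The matches are set side by side below, motif in capitals, since of the 3 members with the interferon element core only Cxcl10 was called in the genotype comparison described later: Cxcl14 was not called and Ccl19 had too few counts to be tested. The windows lie at chr5:92349083-92349112 (Cxcl10), chr4:42756554-42756583 (Ccl19) and chr13:56296704-56296733 (Cxcl14) for the first motif, and at chr5:92348974-92349002 (Cxcl10) and chr5:92328103-92328131 (Cxcl9) for the second, all on the minus strand.

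Cxcl10 interferon element core: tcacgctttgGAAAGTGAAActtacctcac
Ccl19 interferon element core: ttttgggacaGAAAGTGAAAgctcaaggca
Cxcl14 interferon element core: gtgtccacagGAAACAGAAAagcagcaccc
Cxcl10 kappaB-like core: cggtttacagGGGACTTCCctcgggttgc
Cxcl9 kappaB-like core: ggaaggaaaaGGGATTTCCtaaataaata

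Of the 62 entries, 25 passed the filter on low counts (17 ligands and 8 receptors) and entered the tests. Of the other 37, 11 had no count in any library, and 26 had between 6 and 271 counts in all 47 libraries together. Those 26 included Ccl2, Ccl3, Ccl4, Ccl5, Ccl7 and Ccl8, ligands that attract monocytes and T cells, the Cxcr3 ligands Cxcl9 and Cxcl11, and the receptors Cxcr1, Cxcr3, Cxcr5, Ccr3, Ccr4, Ccr6, Ccr7, Ccr8 and Xcr1. Cxcr3, the receptor of Cxcl10, had 55 counts over all WT libraries and 67 over all Kir libraries. Cxcl9 had 27 and 49. Cxcl11, annotated as a polymorphic pseudogene, had 1 and 7. Most of the inflammatory part of the family was thus close to the limit of what this depth shows.

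Levels of different genes are compared as TPM, which are scaled by gene length as well as library size. The most abundant member was Cxcr4 at a mean of 77.2 TPM over the 47 libraries, followed by Ccl27a, a ligand best known from skin epithelium, at 61.8 TPM, and Cxcl17, a ligand of mucosal epithelia, at 61.7 TPM. Cxcl12, the ligand of Cxcr4, stood at 38.8 TPM. Then came Ccl21a at 36.2 and Ccl21c at 24.5 TPM, Cx3cl1 at 19.7 TPM, Ccl25 at 14.8 TPM, Cxcl16 at 11.6 TPM and Ccl28 at 9.92 TPM. The ranges over libraries overlapped between most neighbours in this order. In WT, for example, Cxcr4 ran from 40.9 to 122 TPM, Ccl27a from 32.3 to 80.7 TPM and Cxcl17 from 25.8 to 158 TPM.

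Ccl21a, Ccl21b and Ccl21c are near-identical copies, ligands of Ccr7 made by lymphatic vessels and lymphoid stroma. No entry of the 3 had a count. The counts leave out reads that map to several places, whereas the TPM values share such reads among copies. How the reads were divided between the copies is uncertain: Ccl21c was under 1 TPM in 2 of 23 WT and 4 of 24 Kir libraries, while Ccl21a was never so low. Summed over the Ccl21 entries, the level ran from 20.5 to 128 TPM in WT (median 52.8) and from 19.7 to 128 TPM in Kir (median 61.1), so that the ranges over all ages overlapped. They did not overlap at P21, where Kir held 49 to 60.4 TPM and WT 66.7 to 91.2 TPM. At P3 Kir held 63 to 85.9 TPM and WT 24.1 to 63 TPM. For the chromosome 4 Ccl21a entry the Kir minus WT difference averaged over ages was 0.25 ± 0.12 on the log2(TPM + 1) scale (limma adjusted p = 0.487). For the Ccl21c entry with values the change from P0 to P21 in Kir was called lower (-4.37 ± 1.22, limma adjusted p = 0.00898), where Ccl21c was under 1 TPM in 2 of the 3 Kir P21 libraries, and its Kir minus WT value at P21 was -3.93 ± 1.30 (limma adjusted p = 0.271).

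The first comparison asked how Kir differed from WT at the same age, averaged over the 7 ages. Of the 25 tested members 4 rose in Kir, among them Cxcl10, Ccl12 and Cxcl16, and none fell. Among all 19927 genes tested, 10.4% were called in this comparison, 3.03% higher and 7.38% lower. The threshold for a call was an adjusted p of 0.05 (edgeR quasi-likelihood test, Benjamini-Hochberg over all genes tested). The median fitted difference of the 25 members was 0.18 on the log2 scale, against 0.005 over all genes, and 19 of the 25 were above 0.

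**Figure D1:**
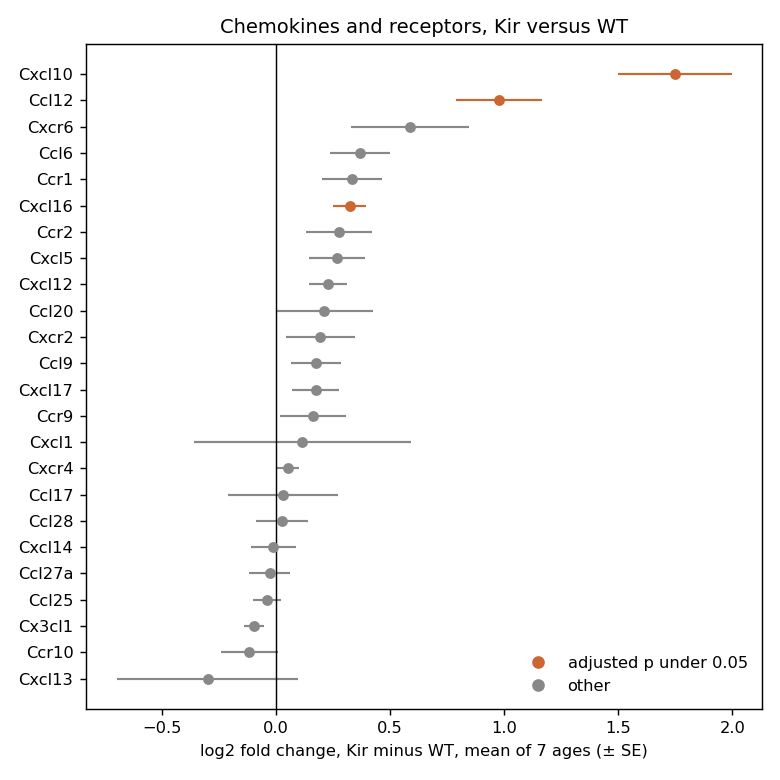
Log2 fold change of Kir against WT, averaged over 7 ages, for 24 of the 25 tested chemokines and receptors, with standard errors as bars. Cxcl10, Ccl12 and Cxcl16 (orange) were called, and Cxcl10 lies farthest to the right at 1.75.

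Cxcl10 (ENSMUSG00000034855, chromosome 5, 92346638 to 92348889) was a low-abundance transcript with 110 counts over all WT libraries and 495 over all Kir libraries. In WT it never exceeded 0.706 CPM and its median was 0.305 CPM. In Kir it ran from 0.205 to 3.29 CPM with a median of 0.852 CPM, and 15 of the 24 Kir libraries lay above the highest WT library. Averaged over ages it was higher in Kir by 1.75 ± 0.25 on the log2 scale (edgeR adjusted p = 2.3e-06).

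At P10 the 4 Kir libraries held 3.29, 2.95, 1.95 and 2.13 CPM of Cxcl10 and the 3 WT libraries 0.347, 0.242 and 0.372 CPM. The groups did not overlap, and the difference of 2.98 ± 0.57 on the log2 scale was called at this age (edgeR adjusted p = 0.000794). On log2(TPM + 0.1) the difference was 2.78 and was not called (limma adjusted p = 0.0518). Cxcl10 was the only member called at P10, where 3.11% of all genes were called and 2.82% were called higher. The highest of the group were Kir P10 replicates 1 and 2, in which many reads were unmapped. Without them the P10 difference was 2.65 (edgeR adjusted p = 0.0261) and the averaged difference 1.70 (adjusted p = 9.26e-06).

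At the other ages Cxcl10 was not called in the fit of all libraries, although its fitted difference was above 0 at each. At P14 it stood at 0.863, 1.21 and 0.771 CPM in Kir and 0, 0.0973 and 0.48 CPM in WT, and at P5 at 0.474, 0.842 and 0.754 CPM in Kir and 0.173, 0.186 and 0.305 CPM in WT. Neither pair of groups overlapped, and nor did P21, at 0.588, 0.538 and 1.64 CPM in Kir and 0.482, 0.459 and 0.21 CPM in WT. At P0 (Kir 1, 0.558, 0.439 and 1.24 CPM; WT 0.408, 0.352, 0.522 and 0.435 CPM) the groups overlapped. They also overlapped at P3 (Kir 0.622, 1.44 and 0.268 CPM; WT 0, 0.706 and 0.141 CPM) and at P7 (Kir 0.205, 1.41, 1.06 and 0.593 CPM; WT 0.472, 0.225, 0.124 and 0.0909 CPM). The fitted differences were 0.90 ± 0.60 at P0, 1.38 ± 0.74 at P3, 1.61 ± 0.63 at P5, 1.98 ± 0.63 at P7, 2.10 ± 0.75 at P14 and 1.28 ± 0.69 at P21. The test of whether the genotype difference changed with age did not call Cxcl10 (edgeR adjusted p = 1), so the size at P10 was not shown to differ from that at other ages.

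**Figure D2:**
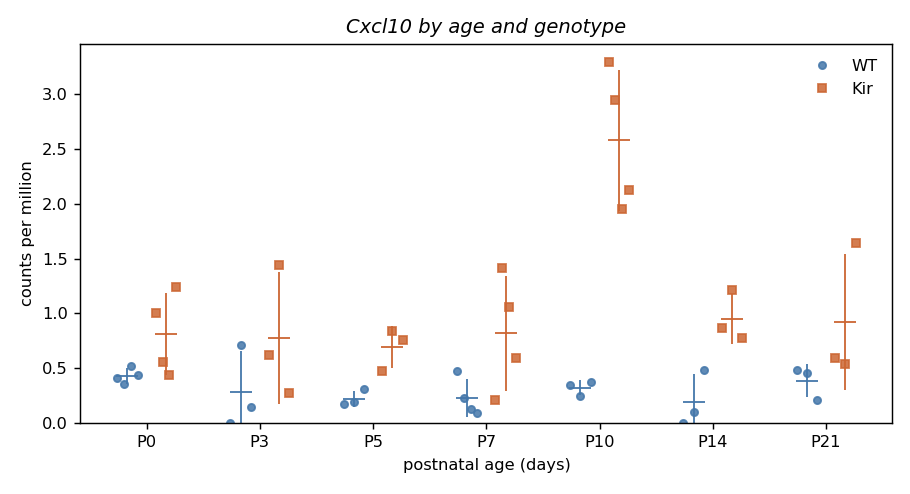
Cxcl10 in CPM by age in WT (circles) and Kir (squares), each point 1 library, with the group mean as a horizontal mark and the SD as a bar. The 4 Kir libraries at P10 lie between 1.95 and 3.29, and all WT libraries lie at or below 0.706.

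Within Kir, Cxcl10 was uneven between libraries of an age. The 5 Kir libraries with low Kcnj2 held 0.268, 0.205, 0.593, 0.588 and 0.538 CPM of Cxcl10. At P3 the other 2 Kir libraries held 0.622 and 1.44 CPM, at P7 they held 1.41 and 1.06 CPM and at P21 the other library held 1.64 CPM. At each of those 3 ages the low-Kcnj2 libraries were thus the lowest in Cxcl10. At P7 they were also the cry4 and cry3 libraries, and the other 2 were cry6. Across ages the order did not follow Kcnj2: the 3 P14 libraries had the most Kcnj2, 1390 to 1650 CPM, and held 0.771 to 1.21 CPM of Cxcl10. The part of Kcnj2 level in the Cxcl10 difference was not tested.

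The prefix moved with depth and age. In cry6 libraries alone (P5, P7 and P10) the Cxcl10 difference was 2.48 ± 0.22 (edgeR adjusted p = 3.25e-06). In that fit Cxcl10 was also called at P7 (2.80 ± 0.45, edgeR adjusted p = 0.00444), where the Kir libraries lie outside the 5 with low Kcnj2. In cry4 libraries alone it was 0.89 ± 0.47 (edgeR adjusted p = 0.562), an average in which P7 is 1 library per genotype, and that Kir library is one of the 5 with low Kcnj2. With P0, P3, P14 and P21 alone it was 1.41 (edgeR adjusted p = 0.0276).

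Ccl12 (chromosome 11, 82101845 to 82103400), a CC ligand that attracts monocytes through Ccr2, ran from 0.163 to 1.5 CPM in WT with a median of 0.75 CPM. In Kir it ran from 0.744 to 3.14 CPM with a median of 1.47 CPM, and 12 of 24 Kir libraries lay above the highest WT library. The fitted difference was above 0 at all 7 ages and averaged 0.98 ± 0.19 on the log2 scale (edgeR adjusted p = 0.00026). At P10 the Kir libraries held 0.976, 2.05, 2.1 and 1.93 CPM and the WT libraries 1.01, 0.587 and 0.632 CPM, so that 1 Kir library lay within the WT range. No single age was called. The averaged difference was 0.76 in cry4 libraries alone (edgeR adjusted p = 0.295) and 0.996 in cry6 libraries alone (adjusted p = 0.0382).

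Cxcl16 (chromosome 11, 70453983 to 70459984), a ligand of Cxcr6 that is made both as a membrane-bound and a soluble form, was a more abundant member with a smaller difference. WT libraries ran from 5.45 to 14.7 CPM (median 10.6) and Kir libraries from 9 to 20.1 CPM (median 11.3). At P0, P3 and P7 the genotypes overlapped, with fitted differences of 0.05 ± 0.17, -0.001 ± 0.20 and 0.29 ± 0.17. At P5, P10, P14 and P21 every Kir library lay above every WT library of its age. At P14, for example, Kir held 9.55, 9 and 11.4 CPM and WT 5.95, 5.45 and 7.61 CPM. The averaged difference was 0.32 ± 0.07 (edgeR adjusted p = 0.0015), and no single age was called. It was 0.205 in cry4 libraries alone (edgeR adjusted p = 0.489) and 0.34 in cry6 libraries alone (adjusted p = 0.15).

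**Figure D3:**
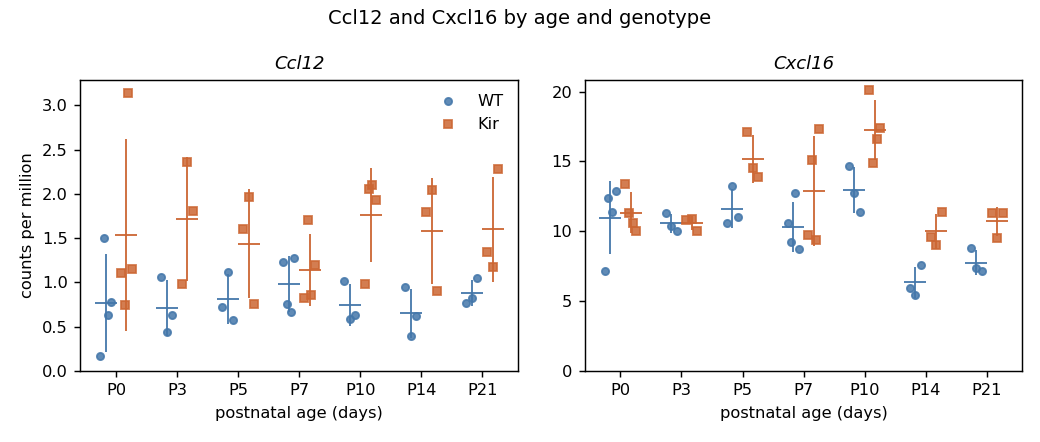
Ccl12 and Cxcl16 in CPM by age in WT (circles) and Kir (squares), each point 1 library, with group means and SD. The Kir means of Ccl12 lie above the WT means at all 7 ages and those of Cxcl16 at 6 of 7.

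Among the ligands by role, the 1 tested ligand of Cxcr3 was called higher, as were 1 of 3 inflammatory CC ligands and 1 of 5 other CXC ligands (the group of Cxcl12, Cxcl13, Cxcl14, Cxcl16 and Cxcl17). None was called among 2 neutrophil-attracting ligands of Cxcr2, 5 homeostatic and epithelial CC ligands, 3 CXC receptors and Cx3cl1. Cxcr4 itself stood at 36.4 to 124 CPM in WT and 46.2 to 116 CPM in Kir, a difference of 0.05 ± 0.05 (edgeR adjusted p = 0.631). Its ligand Cxcl12 had a difference of 0.23 ± 0.08 and was not called in the main fit (edgeR adjusted p = 0.075). DESeq2 called it (0.235, adjusted p = 0.0426), as did limma on log2(TPM + 1) (0.26, adjusted p = 0.0197). Limma on log2(TPM + 0.1) called it as well (0.266, adjusted p = 0.0205). On P0, P3, P14 and P21 alone edgeR called it too (0.356, adjusted p = 0.0486). With same-numbered libraries blocked there it was also called (0.355, edgeR adjusted p = 0.00755). It was not called with upper-quartile scaling, other filters, no prefix term or either prefix alone. Of 47 fits without 1 library 7 called it. Cx3cl1, a membrane-bound ligand made by neurons and epithelium, had a fitted difference of -0.10 ± 0.05 (edgeR adjusted p = 0.191). Its Kir group mean lay below the WT mean at 7 of 7 ages.

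Within single ages, 0 members were called at P0, P5, P7, P14 and P21 in the fit of all libraries by edgeR and also by DESeq2. The counts with an unadjusted p below 0.05 were 4, 4, 2, 5 and 3 of 25 in that order of ages, against 9.93%, 5.65%, 4.07%, 8.21% and 8.35% of all genes. At an adjusted p under 0.05, 0.984%, 0.115%, 0.0753%, 1.18% and 0.758% of all genes were called there. At P3, 1 of 25 members was called, higher in Kir, where 0.713% of all genes were called and 0.161% were called higher, and 22 of 47 fits without 1 library lost that call. There 11 of 25 members had an unadjusted p below 0.05, against 13.5% of all genes, and their median difference was the largest of any age at 0.59, against 0.033 for all genes. Summed levels of several marker lists stood apart between the genotypes at P3. Summed endothelial markers ran from 128 to 161 CPM in Kir and 82.1 to 107 CPM in WT (median difference 0.60), neutrophil markers from 27.5 to 46.4 and 17 to 25.9 CPM (0.62) and B cell markers from 7.3 to 8.94 and 4.03 to 5.69 CPM (0.71), with none of these markers called. Mature sensory neuron markers ran from 1160 to 1800 CPM in Kir and 2330 to 2640 CPM in WT (median difference -0.73), and 3 of 6 were called lower. The part of these markers in the P3 values was not tested. The P3 values included Cxcl5 at 1.11 ± 0.35 (edgeR adjusted p = 0.127), Ccr2 at 1.28 ± 0.40 (adjusted p = 0.129) and Ccl6 at 1.07 ± 0.37 (adjusted p = 0.176). The genotype-by-age test called 0 of 25 members by edgeR and by DESeq2, with 2 at an unadjusted p below 0.05, and 0.256% of all genes.

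Signalling genes outside the family were counted in a list of 30 names, of which 28 were in the files and tested. In Kir averaged over ages 4 rose and 1 fell, where 3.03% of all genes were called higher and 7.38% lower. Cx3cr1, the receptor of Cx3cl1 on macrophages and microglia, rose by 0.48 ± 0.09 (edgeR adjusted p = 0.000134). Plcb2, a phospholipase, rose by 0.63 ± 0.12, and Dock2 and Vav1, exchange factors of Rac in blood cells, rose by 0.62 ± 0.13 and 0.35 ± 0.08. Gnb1, a G protein beta subunit, fell by 0.18 on the log2 scale. The atypical receptors that bind chemokines without G protein signalling, Ackr1, Ackr2, Ackr3 and Ackr4, were not called, with values from -0.19 to 0.04. The list's median was 0.05.

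Known inducers of inflammatory chemokines were counted in a list of 24 genes, of which 21 were tested. In Kir averaged over ages 7 rose and none fell, with a list median of 0.12. Among all genes 3.03% were called higher and 7.38% lower there. Among them were Irf7 (3.38 ± 0.27), Irf9 (1.33 ± 0.10) and Stat2 (1.03 ± 0.10), which carry the interferon response, together with Irf1 (0.49 ± 0.07), Irf8 (0.43 ± 0.09) and Il1b (0.62 ± 0.18). The 5 NF-kappaB subunit genes Nfkb1, Nfkb2, Rel, Rela and Relb were not called, with values from -0.02 to 0.16. The interferon genes Ifng and Ifnb1 did not exceed 0.096 CPM in any library and were not tested. At P10, 5 of the 21 rose, among them Irf7 by 5.11 ± 0.71, and 5 also rose at P14 and at P21, while none was called at P0, P3, P5 or P7. Cxcl10 was not called at P14 or P21, though its genotypes did not overlap there. The genotype-by-age test called 2 of the 21 inducers, against 0.256% of all genes, and did not call Cxcl10. How far the inducers account for the Cxcl10 difference was not tested.

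Markers of immune cells and of neurons moved with the same comparison. Of 12 macrophage markers 9 rose in Kir averaged over ages and none fell, with a median of 0.46. C1qb rose by 0.60 ± 0.08 and Fcgr1 by 0.86 ± 0.11, and none of the 12 was at 0 in all libraries. Their summed level ran from 93 to 468 CPM in WT (median 152) and from 127 to 568 CPM in Kir (median 196). At P3 the sum was 181 to 296 CPM in Kir and 93 to 173 CPM in WT. Of 7 T cell markers 2 were tested and both rose, at summed levels of 1.46 to 4.18 CPM in WT and 2.42 to 5.66 CPM in Kir. All 6 mature sensory neuron markers fell in Kir averaged over ages (median -0.41), as did 2 of 7 tested brain neuron markers (median -0.35). Within single ages brain neuron markers were called at P0 only, 3 of them lower (median -2.04). The WT side at P0 includes replicate 1, at a summed 603 CPM against 111 to 170 CPM in the other WT P0 libraries. No marker was called among those of neutrophils (5 tested), dendritic cells (3), natural killer cells (1) and B cells (5). In bulk tissue, more cells of a type and more RNA per cell cannot be told apart, and the part of these markers in the chemokine and receptor differences was not tested.

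The second comparison asked how the family changed from P0 to P21 in each genotype. In WT 14 of 25 members were called, 9 lower and 5 higher at P21, and among all genes 50.6% were called, 26.7% lower and 23.9% higher. In Kir 12 were called, 9 lower and 3 higher, against 48.7% of all genes, 25.8% lower and 22.9% higher. With upper-quartile scaling the WT split was 6 lower and 6 higher, where in WT Cxcl12 (edgeR adjusted p = 0.0535), Cxcl16 (adjusted p = 0.0586) and Ccl6 were not called and Ccr10 was. The members' share was near that of all genes in both genotypes. Without WT P0 replicate 1 the WT split was 9 lower and 6 higher. The 2 comparisons share no library, and 9 of 25 members (36%) were called in both, against 39% of all genes: Cxcr4, Cxcl17, Cxcl14, Ccl20, Ccl9 and Cxcl13 lower and Ccl27a, Ccl25 and Ccl17 higher. All 5 tested CXC ligands of the group with Cxcl12 fell in WT (3 with upper-quartile scaling), and 3 of 5 tested homeostatic and epithelial CC ligands rose. None of the 5 tested CC receptors was called in WT, and 2 fell in Kir, namely Ccr1 (-0.89 ± 0.35; not called with upper-quartile scaling, edgeR adjusted p = 0.0509) and Ccr2 (-1.01 ± 0.38).

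**Figure D4:**
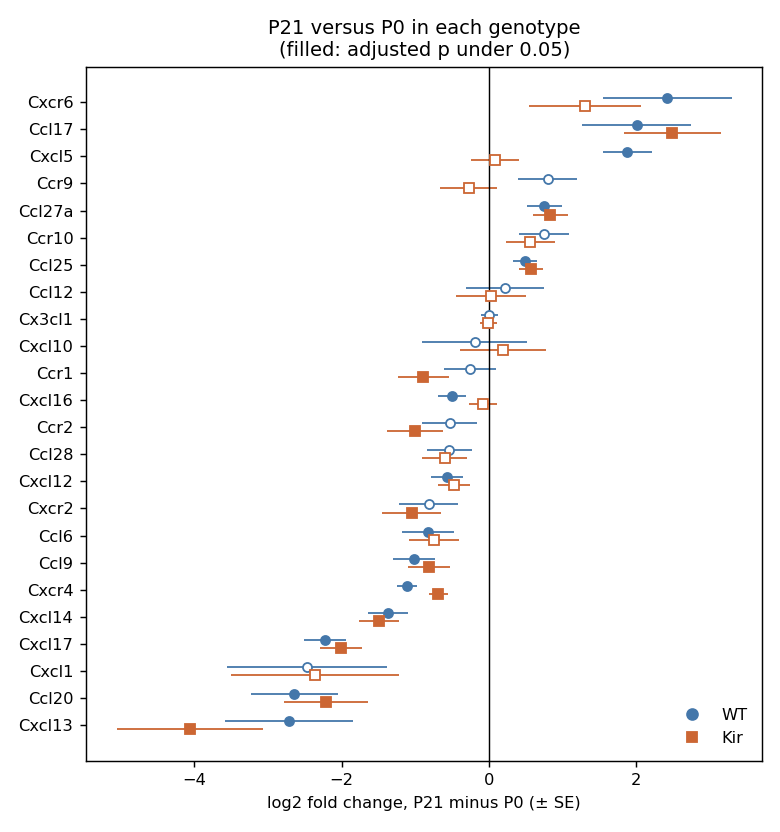
Log2 fold change from P0 to P21 in WT (circles) and Kir (squares) for 24 of the 25 tested members, with standard errors as bars and filled symbols where the adjusted p was under 0.05. Cxcl13, Ccl20 and Cxcl17 lie far to the left in both genotypes, and Cxcl5 lies at 1.88 in WT and 0.08 in Kir.

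Among receptors, Cxcr4 (chromosome 1, 128588199 to 128592293) stood at 104, 92.6, 70 and 71 CPM in WT at P0 and at 36.4, 37.1 and 43.3 CPM at P21. The ages did not overlap, and it fell by 1.12 on the log2 scale (SE 0.14, edgeR adjusted p = 1.69e-08). In Kir it went from 59.4, 90.4, 78 and 72 CPM to 46.2, 46.7 and 46.8 CPM, a fall by 0.69 (SE 0.13, edgeR adjusted p = 5.51e-05). Both genotypes were highest at P5, at a mean of 107 ± 15.2 CPM in WT (SD, n = 3) and 108 ± 7.44 CPM in Kir (n = 3), an age that differs from P0 in prefix as well. The Kir P21 libraries all lay above the WT P21 libraries, but the genotype-by-age test did not call Cxcr4 (edgeR adjusted p = 0.889).

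Cxcr6, the receptor of Cxcl16 on T cells and natural killer cells, had 3 counts over the 4 WT P0 libraries and 14 over the 3 WT P21 libraries. Scaled to library size the ratio was 5.86, with a 95% exact counting interval of 1.64 to 31.8 that covers counting error only. The change was called (edgeR adjusted p = 0.0205) but was lost without WT P0 replicate 3 or 4 or without WT P21 replicate 1 or 3, with values from 2.03 to 3.42 on the log2 scale over all such fits. Cxcr2, the receptor of neutrophil-attracting ligands, fell in Kir by 1.05 (SE 0.40, edgeR adjusted p = 0.0279), while its WT value was -0.82 ± 0.40 (adjusted p = 0.0831).

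Among CXC ligands, Cxcl17 (chromosome 7, 25400053 to 25412886) stood at 41.4, 73.9, 82.8 and 67.7 CPM in WT at P0 and at 13.6, 11.7 and 17.1 CPM at P21. Every P0 library was well above every P21 library, and the change was -2.22 ± 0.29 (edgeR adjusted p = 7.93e-08). Kir went from 72.1, 66.2, 79.9 and 65.2 CPM to 16.9, 17.5 and 18.4 CPM (-2.01 ± 0.28, edgeR adjusted p = 4.19e-07). In WT the level at P3 was already 15.5, 30.5 and 33 CPM, below all P0 libraries.

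Cxcl14, a ligand of epithelia and stroma, held 11.3, 11.4, 11.5 and 6.87 CPM in WT at P0 and 4.43, 4.22 and 3.29 CPM at P21 (-1.37 ± 0.27, edgeR adjusted p = 6.95e-05). In Kir the P0 libraries were spread from 4.93 to 16.7 CPM and the P21 libraries from 2.94 to 5.19 CPM (-1.50 ± 0.27, edgeR adjusted p = 2.2e-05), so that the ages overlapped in Kir alone. Cxcl13, which attracts B cells through Cxcr5, held 2.04, 1.5, 1.15 and 4.26 CPM at P0 and 0.289, 0.367 and 0.35 CPM at P21 in WT (-2.71 ± 0.87, edgeR adjusted p = 0.00933). In Kir it ran from 0.279 to 6.03 CPM at P0 and from 0.084 to 0.182 CPM at P21, with 5 counts at P21 in all.

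Cxcl12 averaged 69.4 ± 14 CPM in the 4 WT libraries at P0 (SD) and 46.7 ± 10.7 CPM in the 3 at P21 (SD), a fall by 0.57 (SE 0.22, edgeR adjusted p = 0.0273). In Kir its change was -0.48 ± 0.22 (edgeR adjusted p = 0.0648). Cxcl16 fell in WT by 0.50 (SE 0.19, edgeR adjusted p = 0.0278) and stood at -0.08 ± 0.19 in Kir (adjusted p = 0.746). Both WT calls were lost without single libraries, that of Cxcl12 without WT P0 replicate 1 or 4 or WT P21 replicate 1 or 3 (-0.71 to -0.40 over all such fits), and that of Cxcl16 without WT P0 replicate 2, 3 or 4 or WT P21 replicate 2 or 3 (-0.66 to -0.41). For neither gene was a difference between genotypes in the change with age called (edgeR adjusted p = 0.997 and 1).

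Cxcl5, a ligand of Cxcr2 that draws neutrophils and is made by epithelial cells, stood at 1.79, 2.2, 3.65 and 4.26 CPM in WT at P0 and at 9.06, 15.7 and 8.05 CPM at P21. Every P21 library was above every P0 library, and it rose by 1.88 ± 0.33 on the log2 scale (edgeR adjusted p = 1.25e-05). In Kir it held 6.21, 3.44, 6.22 and 7.71 CPM at P0 and 5.38, 7.9 and 5.46 CPM at P21, which overlapped (0.08 ± 0.32, adjusted p = 0.859). Kir lay above WT at P3, with 10.6, 10.3 and 7.03 CPM against 4.8, 2.29 and 5.69 CPM, and below WT at P21. Of the 25 members Cxcl5 had the smallest p in the genotype-by-age test, 0.00299 before and 0.274 after adjustment over all genes by edgeR, and so was not called. Summed neutrophil markers ran from 10.4 to 49.3 CPM in Kir and from 21.3 to 36.3 CPM in WT at P21.

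Among CC ligands, Ccl20, the ligand of Ccr6 that epithelium makes when stimulated, stood at 3.43, 12.5, 6.37 and 7.99 CPM in WT at P0 and at 1.25, 1.1 and 1.26 CPM at P21 (-2.64 ± 0.59, edgeR adjusted p = 0.000327). In Kir it went from 7.03, 7.34, 5.19 and 9.04 CPM to 1.18, 1.62 and 1.82 CPM (-2.21 ± 0.57, edgeR adjusted p = 0.00166). By P3 the WT libraries were already at 1.63, 1.76 and 1.62 CPM. Single libraries stood far above their groups later on: WT P10 replicate 1 at 11.9 CPM against 1.45 and 2.01 CPM, and Kir P7 replicate 4 at 10.4 CPM against 1.02 to 2.11 CPM.

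Ccl9, which attracts myeloid cells through Ccr1, held 9.87, 12.2, 13.5 and 8.69 CPM in WT at P0 and 3.85, 5.51 and 6.86 CPM at P21 (-1.02 ± 0.29, edgeR adjusted p = 0.00341), with a like fall in value in Kir (-0.82 ± 0.29, adjusted p = 0.0173). Ccl27a stood at 10.5, 5.99, 6.06 and 9.47 CPM in WT at P0 and at 14.6, 15.1 and 10.8 CPM at P21 (0.75 ± 0.24, edgeR adjusted p = 0.00817). It has further copies on unplaced scaffolds and a near-identical Ccl27b, all without counts, so its values rest on reads that could be placed.

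Ccl25, a ligand of Ccr9, held 12.9, 13.2, 14.1 and 13.3 CPM in WT at P0 and 21.5, 18.9 and 16 CPM at P21. It rose by 0.49 ± 0.16 (edgeR adjusted p = 0.0122), and without WT P21 replicate 1 the change was 0.39 and was not called (adjusted p = 0.0839). Ccl17, a ligand of Ccr4, had 6 counts over the WT P0 libraries and 20 over the P21 libraries, a ratio of 4.19 scaled to library size (95% exact counting interval 1.62 to 12.7; edgeR adjusted p = 0.0222). That call was lost without WT P0 replicate 2 or WT P21 replicate 3. Cx3cl1 and Ccl28 were not called: Cx3cl1 changed by 0.01 ± 0.12 in WT (edgeR adjusted p = 0.977) and Ccl28, a mucosal ligand of Ccr10, by -0.54 ± 0.30 (adjusted p = 0.135).

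**Figure D5:**
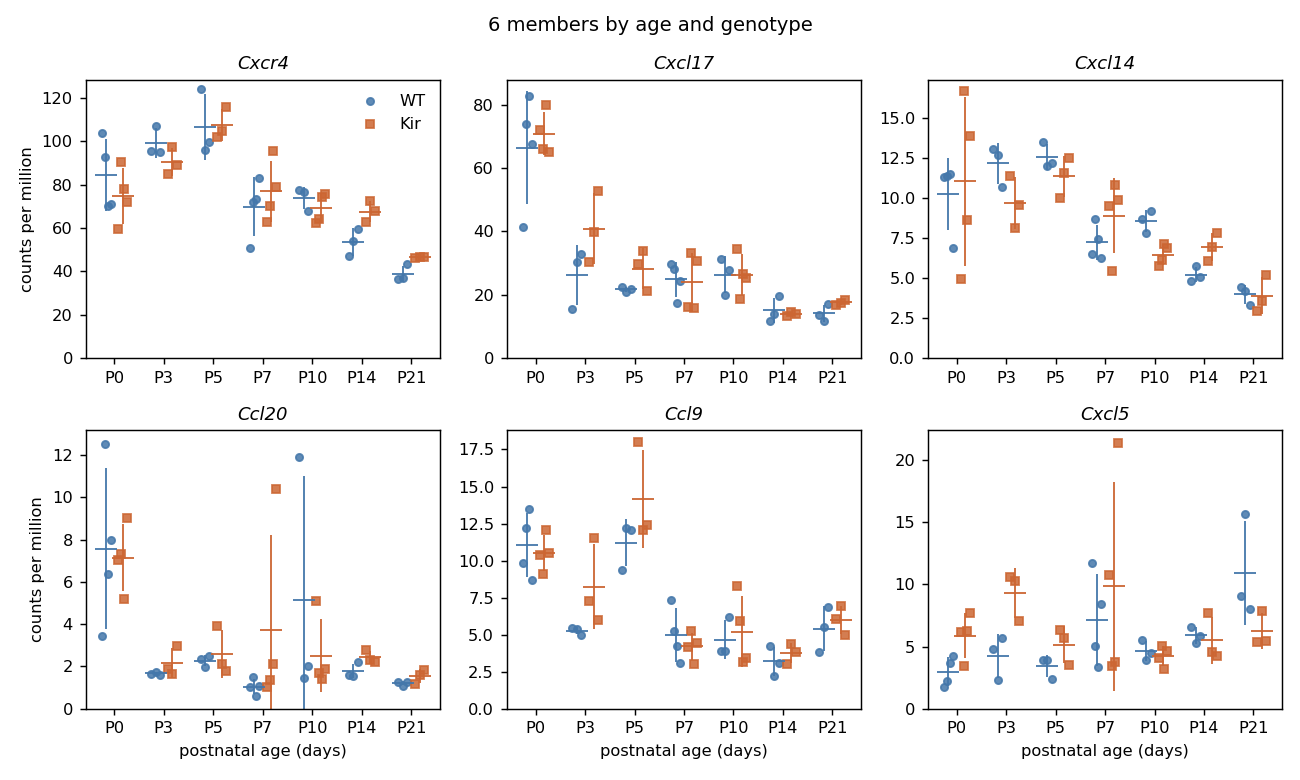
Cxcr4, Cxcl17, Cxcl14, Ccl20, Ccl9 and Cxcl5 in CPM by age in WT (circles) and Kir (squares), each point 1 library, with group means and SD (bars end at 0 where the SD is larger than the mean). Cxcl17 and Ccl20 are highest at P0, Cxcr4 is highest at P5, and in WT Cxcl5 is highest at P21.

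Marker lists moved with age as well, as did many genes. Among all genes 50.6% were called in WT, 26.7% lower and 23.9% higher, and 48.7% were called in Kir. Of 7 tested brain neuron markers 5 fell and 1 rose in WT (median -2.04), and 2 fell and 2 rose in Kir (median -0.03). The WT counts include WT P0 replicate 1, at a summed 603 CPM of these markers. The other WT P0 libraries held 111 to 170 CPM and the WT P21 libraries 229 to 265 CPM. The 2 sets of counts are therefore not read as a difference between genotypes. In WT from P0 to P21 7 of 8 endothelial markers fell (median -2.14), as did 7 of 12 macrophage markers (median -0.78) and all 6 markers of globose basal cells, the neurogenic progenitors (median -0.95), while all 6 mature sensory neuron markers and all 4 sustentacular cell markers rose (medians 2.35 and 3.19). Of the inducer list 11 fell and 1 rose in WT (median -0.55), among them the NF-kappaB inhibitor gene Nfkbia, which fell by 1.35 (SE 0.19, edgeR adjusted p = 2.92e-07). Of the 28 signalling genes outside the family 8 rose and 11 fell, with Pf4, a platelet chemokine, at -2.22 ± 0.39 and Ccrl2, an atypical receptor, at -3.15 ± 0.61. The part of these lists in the change of the chemokines with age was not tested.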

How the data were processed

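The deposited tables, made by the authors, held whole-number counts per gene and TPM per gene for 47 libraries. The submitters' processing notes name STAR 2.6.1c, RSEM, bcl2fastq 2.18 and the build mm10. Strand and other settings are not stated, so antisense overlaps cannot be told apart. The 4 lines of the count table that name no gene (unmapped reads 1.31% to 33.49% of a library, multiply mapped 5.17% to 20.58%, featureless 3.79% to 12.28%, ambiguous 2.91% to 3.80%) stayed out of library sizes and tests. WT P0 replicate 3, whose title says P0 and whose stage label says P3, was kept in P0, since the series design counts 4 WT samples there. Positions are from GENCODE M21 on GRCm38 (54495 of 54532 identifiers matched). No replicates were identical; 57 pairs differed by 7.24 to 114.74 times the sampling variance.

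The tests on counts used edgeR 4.0.16 under R 4.3.3: TMM, filterByExpr, 1 fit of all libraries with group means plus a prefix term, quasi-likelihood F tests, two-sided, Benjamini-Hochberg over 19927 genes. Fold changes carry standard errors, and CPM are counts over the TMM-normalized library size. Alternatives were DESeq2 1.42.0, upper-quartile scaling, other filters, no prefix term, limma 3.58.1 on log2(TPM + 1) and log2(TPM + 0.1), each prefix alone, the other placing of WT P0 replicate 3, a replicate block over 4 ages and 47 fits without 1 library. Those without Kir P10 replicates 1 and 2, and on P0, P3, P14 and P21 alone, were added after seeing the data. Same-numbered WT and Kir libraries deviated together at P3 (correlations 0.172, 0.21 and 0.286) and not at P0, P14 or P21, so the numbers were taken to pair libraries at P3 only, as a hint from the data. The scripts were tested on simulated data.

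Members and lists were chosen with earlier results of these data known. Members named library by library were Cxcl10, Cxcr4, those called between genotypes, and those called between P21 and P0 in WT without overlap, up to 12; results for 1 member and 1 listed gene are not reported here.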

Additional observations from a re-analysis of the deposited data

Results flagged for a closer look

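In groups of 4 libraries, each of the 15 members given library by library was checked for a library far from the rest of its group. Of 75 gene and group pairs 7 stood out, at a nominal rate of about 1 in 20, and an excess over chance was not tested. Ccl12 stood at 3.14 CPM in Kir P0 replicate 3 against 0.744 to 1.15 CPM in the others, and at 0.976 CPM in Kir P10 replicate 1 against 1.93 to 2.1 CPM. Ccl20 stood at 10.4 CPM in Kir P7 replicate 4 against 1.02 to 2.11 CPM, and at 5.08 CPM in Kir P10 replicate 1 against 1.39 to 1.9 CPM. Cxcl14 stood at 6.87 CPM in WT P0 replicate 4 against 11.3 to 11.5 CPM. Cxcl13 stood at 0.0333 CPM in Kir P10 replicate 4 against 0.263 to 0.308 CPM, and Cxcr6 at 0.083 CPM in WT P7 replicate 3 against 0.525 to 0.567 CPM; both are levels of a few counts. Kir P7 replicate 4 is also one of the 5 Kir libraries with low Kcnj2, and Kir P10 replicate 1 one of the 2 with many unmapped reads.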

How the results depend on the processing

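Direction never reversed, and the 4 members called between genotypes kept their calls in all 47 fits without 1 library. Their count, 4 averaged over ages, was 7 with no filter on low counts (adding Ccl5, Ccl7 and Ccr3), 5 by DESeq2, 0 in cry4 libraries alone and 2 in cry6 libraries alone, where fewer libraries were tested, and 4 to 8 without 1 library. It moved past 1.5 times without WT P10 replicate 3, WT P14 replicate 1 or 2, WT P21 replicate 2, Kir P3 replicate 1, Kir P14 replicate 2 or Kir P21 replicate 3.

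At P3 the count of 1 became 0 with upper-quartile factors, no filter, no prefix term, all 3 limma fits, the other placing of WT P0 replicate 3, without Kir P10 replicates 1 and 2, with the replicate block and on 4 ages alone, and ran from 0 to 1 without 1 library. At P10 it was 0 on log2(TPM + 0.1), and 2 by DESeq2 (Ccl27a added) and on unfiltered log2(TPM + 1), with 1 to 2 without 1 library. Ccl27a stood there at 12.5 and 15.1 CPM in Kir replicates 1 and 2, which had many unmapped reads. Kir replicates 3 and 4 held 6.3 and 6.36 CPM, and the WT P10 libraries 4.95 to 6.93 CPM. In TPM the genotypes overlapped, at 60.9, 66.84, 65.06 and 57.98 TPM in Kir and 72.5, 67.46 and 53.03 TPM in WT. At P14 the count of members was 1 with no filter (Ccl5, whose counts total 220), on log2(TPM + 1) (Cxcl16) and on the same unfiltered (Ccl5), with 0 to 1 without 1 library. At P0 and P7 it ran from 0 to 1 without 1 library, and at P5, P21 and for the change of the genotype difference with age it stayed 0. In cry6 libraries alone Cxcl10 was called at P7 (edgeR adjusted p = 0.00444), and at P10 Ccr3 (adjusted p = 0.00713) beside Cxcl10. In cry4 libraries alone Ccl5 was called at P14 (edgeR adjusted p = 0.0217).

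The P21 against P0 counts, 14 in WT and 12 in Kir, ran from 12 to 17 and from 11 to 16 without 1 library. With the replicate block over 4 ages, 3 members were called averaged over ages, 8 in WT and 9 in Kir for P21 against P0; the block is only a shared number at P0, P14 and P21. The same 4 ages without it gave 4, 14 and 12. Averaged over ages, the 3 called with the block included Cxcl10 and Cxcl12 but not Ccl12 or Cxcl16. The 4 called without it included Cxcl10, Ccl12 and Cxcl12 but not Cxcl16. Where no cause is named above, it was not tested. Depth limits the 26 members with few counts.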
